A study of Rattus norvegicus with 6 samples.

Results

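Neurons of the dorsal root ganglion (DRG), which holds the cell bodies of sensory neurons, keep a high internal chloride concentration, so that the opening of a chloride channel such as the GABA-A receptor depolarises them. Chloride is loaded by a sodium-potassium-chloride cotransporter and removed by potassium-chloride cotransporters, and the direction of the current through any chloride channel follows from the balance of the loaders and the extruders. Described here are 9 genes of this system, namely the importer Slc12a2, the extruders Slc12a4, Slc12a5 and Slc12a7, the CLC proteins Clcn2 and Clcn3, the anoctamins Ano1 and Ano3, and the volume-regulated channel subunit Lrrc8a. They were found by gene symbol among the 43350 gene rows of the deposited table. Where a symbol had several rows, a protein-coding row was taken first and then the row with the most counts. Every symbol had a row, and the choice used no measured difference between the groups.

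The RNA came from the ipsilateral lumbar DRG of male Sprague-Dawley rats taken 11 days after surgery, in 3 chronic constriction injury (CCI) rats and 3 sham rats. In CCI rats the left sciatic nerve was tied loosely, and in sham rats the same nerve was exposed and left untied, so both groups had a skin and muscle incision. The methods describe 1 rat per sample and rats that entered their group after behavioural testing, while the labels enter no treatment for the sham group and speak of pooling in the library protocol. The age of the rats is not among the labels. Each library, made from whole DRG RNA after removal of ribosomal RNA, held 75423546 to 87615743 counted reads.

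A gene counted as called when its unadjusted p lay under 0.05 and its log2 fold change reached 0.58 in either direction. The p came from edgeR's quasi-likelihood test, fitted on the 26663 rows whose mean FPKM, a level scaled to transcript length and library size, was 0.5 or more. Of the 9 chloride genes, 8 passed this filter and 0 were called, where 3.83% of all tested rows were called. Slc12a5 fell under the filter. After Benjamini-Hochberg adjustment of the same test, 0 had an adjusted p under 0.05, beside 0.0938% of all rows. Without a fold limit, 0 of the 8 had an unadjusted p under 0.05. DESeq2, which gave no p for Clcn2, and limma each called 0 by either limit. The CCI and sham libraries overlapped for all 9 genes in CPM, the counts per library after scaling to equal depth, where the groups did not overlap for 17.3% of all tested rows. With 3 rats in each group, the smallest p that an exact permutation test could give is 0.1, and each p below is therefore that of the model fitted on all rows.

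The labels could be checked against 9 genes that rise in injured sensory neurons. All 9 were higher in the CCI group, with a summed level of 519 to 881 CPM in CCI and 235 to 249 CPM in sham libraries. Among the cell type markers, 0 of 10 sensory neuron, 0 of 6 satellite glia and 0 of 8 Schwann cell genes were called. Without the fold limit, at p under 0.05 unadjusted, the neuronal genes Nefh (log2 fold change -0.54) and Calca (-0.15) were lower and Tubb3 (0.31) and Prph (0.25) higher, as were Cdh19 of satellite glia (0.37) and Acta2 (0.40) and Tagln (0.31) of smooth muscle, while Ncmap of Schwann cells was lower (-0.26). Of 10 macrophage genes, 6 were higher, with a summed level of 119 to 183 CPM in CCI and 84.3 to 110 CPM in sham libraries. Cd4 was higher as the 1 tested gene of 7 on the T cell list. The other genes of that list fell under the filter, among them Cd3e, with at most 5 counts in a CCI and 8 in a sham library. Of 7 tested skeletal muscle genes, 5 were lower, with a sum of 394 CPM in Sham 1 and 9.01 to 50.1 CPM in the other libraries. The endothelial, smooth muscle, fibroblast, erythrocyte and spinal cord lists had 0 called genes, and no adipocyte gene passed the filter. Lep and Slc32a1 were listed at 0 in every library, as was Cldn5, although the other 5 endothelial genes with a row had mean levels of 2.23 to 5.68 FPKM. In bulk tissue, fewer cells of a type and less RNA per cell cannot be told apart.

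Levels of different genes are set side by side in FPKM, which are per length of transcript. The mean level over the 6 libraries was 29.0 FPKM for Slc12a2, 26.5 for Lrrc8a, 20.2 for Ano3, 18.7 for Clcn3, 8.73 for Slc12a4, 7.18 for Slc12a7, 1.84 for Ano1 and 0.114 for Slc12a5. In both groups the ranges of Slc12a2 and Lrrc8a overlapped, as did those of Ano3 and Clcn3, so these neighbours did not differ beyond the spread between libraries. Lrrc8a lay above Ano3, Clcn3 above Slc12a4, Slc12a4 above Slc12a7 and Slc12a7 above Ano1 without overlap in both groups. Clcn2 had no stable place in the order, since its range in CCI libraries covered those of Ano1 and Slc12a5.

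**Figure D1:**
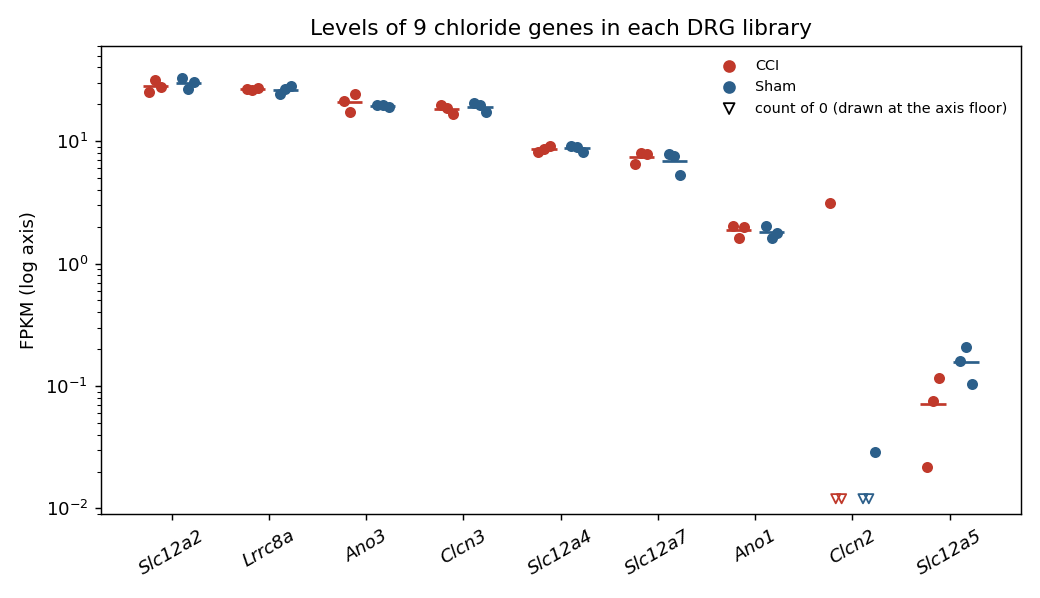
FPKM on a log axis for each of the 9 genes, with 1 point per library, CCI in red and sham in blue, and short lines at the group means where every library had counts; open triangles mark a count of 0. The CCI and sham points of a gene lie at like heights from Slc12a2 (25.0 to 32.6 FPKM) to Ano1 (1.61 to 2.02 FPKM), Clcn2 stands at 3.13 FPKM in CCI 1, and Slc12a5 lies lowest among the genes with counts in every library.

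Atf3 and Jun are transcription factors of injured neurons that bind the cyclic AMP response element TGACGTCA and the AP-1 element, TGACTCA or TGAGTCA. The AP-1 element was searched for as TGANTCA, a looser pattern that takes any base at the centre. Atf3 was higher in the CCI group by a log2 fold change of 3.47 (SE 0.31) and Jun by 1.06 (SE 0.12). The stretches of the promoters of the chloride genes that match TGACGTCA or TGANTCA are therefore shown first, with the match in capitals. They are RefSeq sequence of build GRCr8, 5′ to 3′ on the strand of the gene. A search of 11 windows of the 9 genes, each from 250 bases before to 50 bases after a listed start, found 3 matches. Both search patterns read the same on either strand, and neither contains the other.
Lrrc8a, chr3:33908225-33908254, plus strand, element 100 bases before the start: gcgcccagccgTGACGTCActtccggggcg
Clcn3, chr16:34137930-34137959, plus strand, element 63 bases before the start: cgtcaacgcggTGACGTCAcgcgcgtgcga
Ano3, chr3:117885168-117885197, minus strand, element 39 bases before the start: taacaagctttTGAATCAttaatttttaaa
Of 33469 rat promoter windows of the same length, 1.83% held TGACGTCA and 7.33% held TGANTCA. The Ano3 match, TGAATCA, has A at the centre and is thus neither TGACTCA nor TGAGTCA. A match describes the letters and is not a shown binding site. The genes of these 3 windows, Lrrc8a, Clcn3 and Ano3, were among those not called.

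Slc12a2 encodes NKCC1, which brings sodium, potassium and chloride into the cell and is the main chloride loader of sensory neurons. Its row lies at chr18:52917124-52985261 on the plus strand, in the coordinates of the genome that the authors call V101. It measured 25.0, 31.6 and 27.7 FPKM in CCI 1, 2 and 3 and 32.6, 26.8 and 30.5 FPKM in Sham 1, 2 and 3, or 28.1 ± 3.30 and 30.0 ± 2.95 FPKM (SD, n = 3 each). CCI 1 was the lowest and Sham 1 the highest library, and the groups overlapped. Relative to sham, the log2 fold change was -0.11 (SE 0.11), with a 95% interval of -0.37 to 0.15 and a Benjamini-Hochberg adjusted p of 0.792 in edgeR's quasi-likelihood test.

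Among the extruders, Slc12a4 encodes KCC1, a widely expressed potassium-chloride cotransporter of cell volume control (chr19:37917014-37938857, minus strand). It measured 8.18, 8.67 and 9.21 FPKM in the CCI libraries and 9.18, 8.91 and 8.23 FPKM in the sham libraries. The ranges of the groups nearly coincide, with a log2 fold change of -0.03 (SE 0.07; 95% interval -0.20 to 0.14). Slc12a7 encodes KCC4, a related cotransporter activated by swelling (chr1:32086755-32167901, minus strand). It measured 6.54, 8.04 and 7.85 FPKM in CCI and 7.80, 7.55 and 5.32 FPKM in sham libraries. Sham 3 was the lowest of the 6 and gave the sham group a coefficient of variation of 19.9% in FPKM. The log2 fold change was 0.10 (SE 0.16; 95% interval -0.28 to 0.48), and it was -0.05 without Sham 3.

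Slc12a5 encodes KCC2, the neuronal extruder that keeps internal chloride low in mature central neurons (chr3:161425988-161462879, plus strand). CCI 1, 2 and 3 had 7, 24 and 34 counts of it, and Sham 1, 2 and 3 had 54, 64 and 33. These correspond to 0.0218, 0.0760 and 0.117 FPKM against 0.159, 0.207 and 0.103 FPKM. The lowest CCI library lay well under the lowest sham library, but CCI 3 lay above Sham 3, so the groups overlapped. In a fit of all rows with any count, which has no filter, the log2 fold change was -1.13 (SE 0.63) with a Benjamini-Hochberg adjusted p of 0.687 in edgeR's quasi-likelihood test. That test did not separate the groups, and the spread between rats was wide, with coefficients of variation of 66.6% in CCI and 33.3% in sham FPKM.

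Set against each other within a library, the importer exceeded the neuronal extruder by a log2 ratio of FPKM of 10.17, 8.70 and 7.89 in CCI 1, 2 and 3 and of 7.68, 7.02 and 8.21 in Sham 1, 2 and 3. The group means were 8.92 ± 1.15 and 7.64 ± 0.60 (SD, n = 3 each). The groups overlapped, since CCI 3 lay under Sham 3, and the difference of their means was 1.28, or 0.66 without CCI 1, where Slc12a5 had 7 counts.

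Clcn3 encodes ClC-3, a chloride-proton exchanger of endosomes and synaptic vesicles (chr16:32449116-32519148, plus strand). It measured 19.6, 18.7 and 16.6 FPKM in CCI and 20.3, 19.6 and 17.5 FPKM in sham libraries. Replicate 3 was the lowest of each group, and the groups overlapped. Its log2 fold change was -0.08 (SE 0.09; 95% interval -0.29 to 0.13). A row on the opposite strand inside the gene held 0.970% to 1.80% as many counts as Clcn3, and how the counting used strand is not stated. Of the FPKM of the 9 CLC genes, Clcn3 held 22.0% ± 1.84 in CCI and 21.4% ± 1.83 in sham libraries.

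Clcn2 encodes ClC-2, a plasma membrane chloride channel opened by hyperpolarisation and swelling (chr11:83883879-83897394, plus strand). Its row held 894 counts in CCI 1, 9 counts in Sham 3 and 0 in the other 4 libraries. With 3.13 FPKM in CCI 1, the gene passed the filter through that library alone. The fitted log2 fold change of 6.61 (SE 2.88; 95% interval -0.31 to 13.52) rests on CCI 1 and on how counts of 0 are handled, with a Benjamini-Hochberg adjusted p of 0.486 in edgeR's quasi-likelihood test. It was -4.62 without CCI 1, and the call was reached without CCI 2 (7.20) and without CCI 3 (7.19). DESeq2 gave no p for the gene. A count of 0 in 4 libraries beside 894 in another is uncommon in the table. Of 15284 rows that reached 500 counts in any library, 1.16% had a count of 0 in another, and of 11180 such protein-coding rows 0.456% did.

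The row of Clcn2 shares 522 bases with Fam131a, a gene on the opposite strand. CCI 1, 2 and 3 had 720, 0 and 549 counts of Fam131a, and Sham 1, 2 and 3 had 0, 557 and 0. It was therefore listed at 0 in 3 of 6 libraries, and at 0 together with Clcn2 in CCI 2 and Sham 1. An exact 0 in such a table can be a failed assignment of reads, and whether that is so here was not tested. Clcn2 is thus only said to be listed at 0 in CCI 2, CCI 3, Sham 1 and Sham 2. By a rule of the smallest root mean square distance of centred log2 CPM over the 6 libraries, the nearest protein-coding row had a distance of 2.26, followed by Ibsp at 2.44 and LOC680121 at 2.49. All 3 distances exceed 2 on the log2 scale, so no tested protein-coding row with a symbol had a profile close to that of Clcn2.

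**Figure D2:**
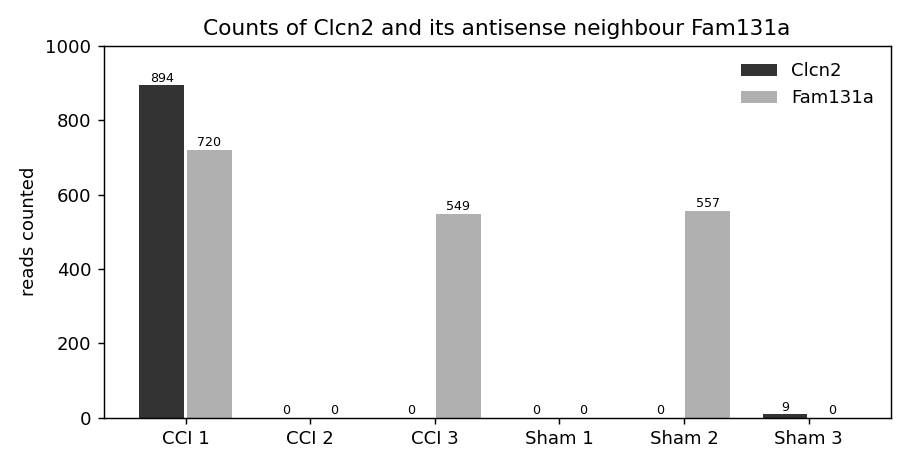
Reads counted in each of the 6 libraries for Clcn2 (dark bars) and for Fam131a (light bars), which overlaps it on the opposite strand. Clcn2 has 894 reads in CCI 1 and 9 in Sham 3, while Fam131a has 549 to 720 reads in CCI 1, CCI 3 and Sham 2 and 0 in the others.

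Ano1 encodes the calcium-activated chloride channel TMEM16A, which depolarises nociceptors when calcium rises and responds to heat (chr1:217754336-217902387, minus strand). It measured 2.01, 1.62 and 2.00 FPKM in CCI and 2.02, 1.61 and 1.77 FPKM in sham libraries, or 1.87 ± 0.223 and 1.80 ± 0.205 FPKM (SD, n = 3 each). The lowest and the highest values of the groups almost coincide. CCI differed from sham by a log2 fold change of 0.05 (SE 0.14; 95% interval -0.29 to 0.38).

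Ano3 encodes TMEM16C, which in sensory neurons acts with a sodium-activated potassium channel that dampens firing (chr3:101840630-102203403, minus strand). It measured 21.1, 17.3 and 24.1 FPKM in CCI and 19.7, 19.6 and 19.2 FPKM in sham libraries. The sham libraries lay within the range of the CCI libraries, which were more spread, with a coefficient of variation of 16.5% in CCI and 1.59% in sham FPKM. No test was made of the spread. The log2 fold change was 0.08 (SE 0.12; 95% interval -0.20 to 0.36). Without CCI 2 it was 0.20 with an unadjusted p of 0.0367 in the edgeR fit across all rows, a fold under the limit. Muc15, a gene on the opposite strand within Ano3, held 1.64% to 2.68% as many counts.

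Ano3 held 25.7% ± 3.22 of the FPKM of the 10 anoctamin genes in CCI and 25.4% ± 0.54 in sham libraries, after Ano10 with 36.2% ± 1.77 and 37.1% ± 1.23. Ano1 held 2.31% ± 0.16 and 2.34% ± 0.22. The channel best known from nociceptors was thus a minor anoctamin in RNA from whole DRG.

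Lrrc8a encodes the subunit that every volume-regulated anion channel needs, and which assembles with the other LRRC8 proteins (chr3:8802852-8829662, plus strand). It measured 26.8, 26.2 and 27.3 FPKM in CCI and 24.3, 26.6 and 28.0 FPKM in sham libraries. The CCI values lay inside the range of the sham values. The log2 fold change was 0.01 (SE 0.07; 95% interval -0.16 to 0.17), the smallest in size of the 8 tested chloride genes. Of the FPKM of the 5 LRRC8 genes, Lrrc8a held 47.5% ± 0.44 in CCI and 45.5% ± 2.07 in sham libraries. Its partner Lrrc8c held 27.2% to 27.5% in CCI and 28.7% to 31.5% in sham libraries, and these ranges did not overlap.

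**Figure D3:**
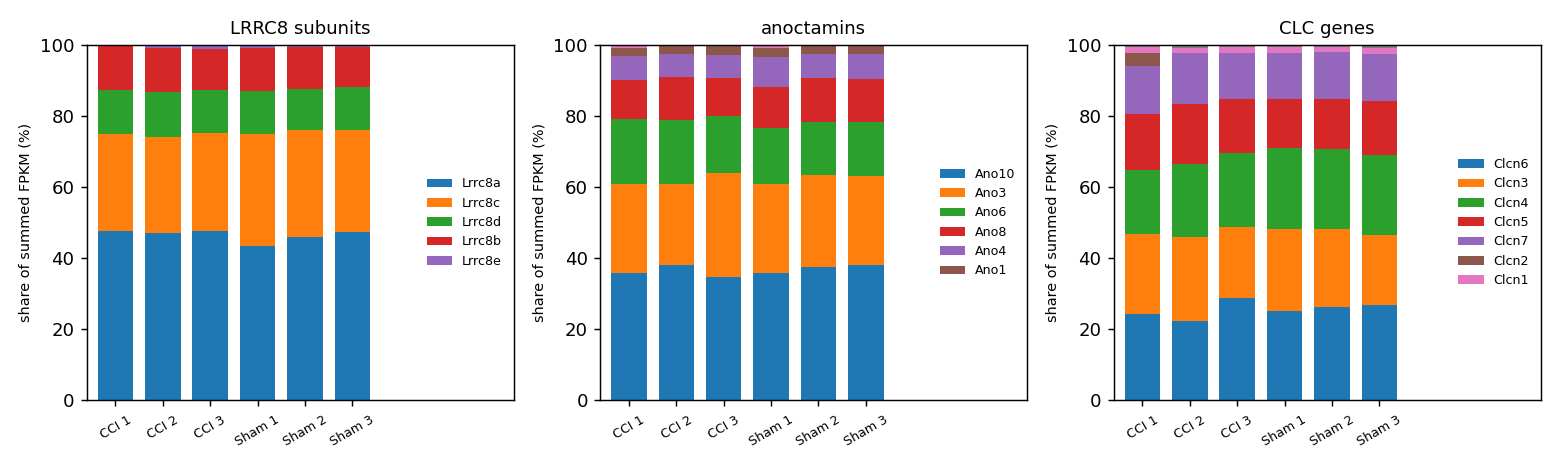
Share of the summed FPKM of 3 gene families held by each gene, in percent, with 1 stacked bar per library; genes that stay under 1% in every library are drawn without a legend entry. Lrrc8a holds 43.3% to 47.8% of the LRRC8 family, Ano3 22.8% to 29.2% of the anoctamins, Clcn3 19.4% to 23.5% of the CLC genes, and Clcn2 shows as a band in CCI 1.

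For 7 of the 9 chloride genes, all but Clcn2 and Slc12a5, the 95% interval of the log2 fold change lay within 0.58 in either direction. Changes as large as the limit of the call lay outside these intervals, while changes within an interval could not be told from 0. Of all tested rows, 47.0% had an interval within the limits, and many of those rows are not protein-coding. Of the 58 other tested genes of chloride handling described below, 43 had such an interval. Narrow intervals were thus not particular to these 7 genes. The median log2 fold change was 0.03 over the 8 tested chloride genes and 0.01 over all tested rows.

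**Figure D4:**
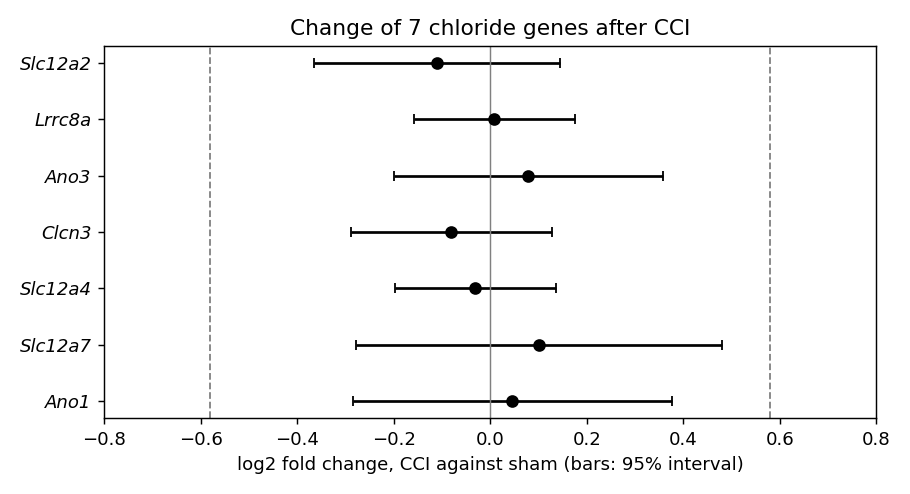
Log2 fold change of CCI against sham from edgeR for 7 chloride genes, with bars for the 95% interval and dashed lines at 0.58 in either direction. The 7 intervals cross 0 and stay within the dashed lines, from -0.37 for Slc12a2 to 0.48 for Slc12a7.

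The other genes of chloride handling were taken from 9 lists of 83 genes, all of which had a row and 58 of which passed the filter. Called higher was 1 of the 58, Slc4a8, and 0 were called lower, where 2.57% of all tested rows were called higher and 1.26% lower. Slc4a8 encodes a sodium-driven chloride-bicarbonate exchanger of neurons. It measured 127, 76.1 and 36.5 CPM in CCI and 37.0, 24.1 and 39.6 CPM in sham libraries. CCI 1 and CCI 2 lay above all sham libraries, while CCI 3 lay below 2 of them. The log2 fold change was 1.25 (SE 0.44), with a Benjamini-Hochberg adjusted p of 0.385 in edgeR's quasi-likelihood test. The call was lost without CCI 1 (0.75), CCI 2 (1.29), Sham 1 (1.33) or Sham 2 (1.06).

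At any fold, 16 of the 58 genes (27.6%) had an unadjusted p under 0.05, Slc4a8 included, where 10.7% of all tested rows did. Of these, 6 were higher and 10 lower in the CCI group, beside 5.57% and 5.18% of all tested rows. Only 13712 of the 26663 tested rows are protein-coding, and the share over genes of like type and level was not counted. In edgeR's quasi-likelihood test 0 of the 58 had a Benjamini-Hochberg adjusted p under 0.05, while DESeq2 gave 4, among them Clcn4, Clic1 and Slc26a2. These genes were singled out after their values were seen.

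Of the 8 tested subunits and partners of the sodium pump, which sets the sodium gradient that drives the importer, 4 had an unadjusted p under 0.05 and lower values. Among them were the beta subunit Atp1b1 (log2 fold change -0.20, SE 0.06) and the regulator Fxyd7 (-0.32, SE 0.10). Atp1b1 measured 583.5, 647.4 and 621.7 CPM in CCI and 695.0, 742.6 and 697.7 CPM in sham libraries. All CCI libraries lay below all sham libraries. Atp1b2, another beta subunit, had a higher value (0.28, SE 0.09).

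Clcn4, a chloride-proton exchanger of endosomes related to Clcn3, had the lowest p of the 58 genes. It measured 84.7, 89.9 and 94.6 CPM in CCI and 111.7, 112.4 and 114.1 CPM in sham libraries. The groups were well apart, with a log2 fold change of -0.33 (SE 0.06) and a Benjamini-Hochberg adjusted p of 0.125 in edgeR's quasi-likelihood test. Clcn6, an exchanger of late endosomes and the CLC gene of highest mean FPKM, had a log2 fold change of -0.18 (SE 0.11). Its FPKM range overlapped that of Clcn3 in CCI libraries. In sham libraries it lay above Clcn3, at 22.2 to 24.3 against 17.5 to 20.3 FPKM.

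Lrrc8c, the most abundant partner of Lrrc8a, measured 114.6, 113.0 and 116.9 CPM in CCI and 132.1, 131.7 and 129.2 CPM in sham libraries, and its log2 fold change was -0.19 (SE 0.05). The other tested LRRC8 subunits, Lrrc8b and Lrrc8d, had values from -0.01 to 0.00. Ano6, a lipid scramblase of the anoctamin family, had 0.24 (SE 0.07), and Ano10, the most abundant anoctamin, had 0.02 (SE 0.05).

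Among other anion channels, Clic4, the most abundant of the list and a chloride intracellular channel protein, had a log2 fold change of 0.24 (SE 0.07). Clic1, of the same family, had 0.45 (SE 0.10) on a row that joins it with Ddah2, so its counts could not be separated. Best1, a calcium-activated chloride channel, varied widely between libraries, with 40.0, 6.96 and 93.7 CPM in CCI and 81.9, 57.0 and 84.5 CPM in sham libraries. Its log2 fold change of -0.67 (SE 0.78) was within the spread of the CCI libraries.

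The glycine receptor list had 2 tested genes, both lower with an unadjusted p under 0.05. They were the beta subunit Glrb (-0.30, SE 0.09), which measured 108.5, 118.6 and 115.0 CPM in CCI and 122.6, 150.5 and 149.1 CPM in sham libraries, and the scaffold Gphn (-0.18, SE 0.07). The alpha subunits Glra2 and Glra3 were at 0 in every library and Glra1 was under the filter. Slc26a2, a sulfate-chloride exchanger, had a log2 fold change of 0.40 (SE 0.08), and Slc4a2, the most abundant anion exchanger, had -0.09 (SE 0.07).

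Of the 3 other tested cation-chloride cotransporters, Slc12a3, the thiazide-sensitive sodium-chloride cotransporter, had -0.42 (SE 0.11) at 1.82 ± 0.0303 FPKM in CCI and 2.40 ± 0.226 FPKM in sham libraries. The WNK and SPAK kinases phosphorylate the cotransporters, which turns the importer on and the extruders off. Of the 8 genes of their list, Wnk2 alone had an unadjusted p under 0.05 (-0.29, SE 0.07), and Wnk1, of highest mean FPKM, had -0.04 (SE 0.05). The list also holds Cab39 and Cab39l, which are not kinases. The row of Wnk4 joins it with Ramp2, Vps25 and Cntd1, so its counts could not be separated. The injury and macrophage genes, and the neuronal, glial and muscle genes given above, also differed between the groups at the same unadjusted limit, and their part in these small differences was not tested.

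**Figure D5:**
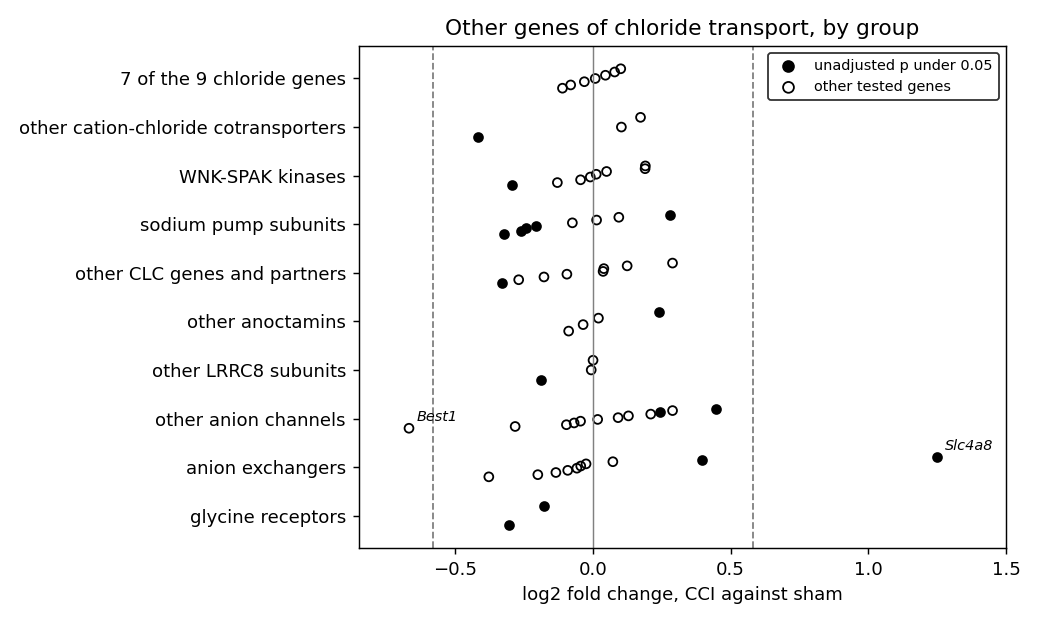
Log2 fold change of CCI against sham for the tested genes of 9 chloride handling lists and, in the top line, for 7 of the 9 chloride genes; filled points have an unadjusted p under 0.05, dashed lines mark 0.58 in either direction, and the vertical offset within a line only separates points. Slc4a8 (1.25) and Best1 (-0.67) lie beyond the dashed lines, 16 points are filled, and none of the points of the top line is filled.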

How the data were processed

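Per the labels, the authors used HISAT2 2.0 and StringTie 1.3.0, and the paper adds the rat genome V101 and edgeR. The authors deposited, for each of 43350 rows, whole-number read counts without normalization and FPKM values made from them, and 5.37% to 5.72% of each library's counts fell on 6849 rows that carry no symbol. The chloride genes, the lists and the tests were chosen with earlier results of these data known. Counts, between 75423546 and 87615743 per library, were fitted with edgeR 4.0.16 (glmQLFit, TMM factors of 0.988 to 1.01) in R 4.3.3 on 26663 rows (mean FPKM 0.5 or more), CCI against sham with no covariate, and the script was tested on simulated data. Since the labels name separate samples but not separate cultures or batches, p-values measure the spread between these samples, whose pairs differed by more than sampling noise in each group (chi-square per degree of freedom 57.3 to 84.2). Intervals are the log2 fold change with its SE and the t quantile at 95%.

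Named are all 9 genes, each list gene called at the unadjusted limits, the gene of highest mean FPKM per list and the 3 profiles nearest to the chloride gene of lowest p; others were named after their values were seen. The lists held 84 symbols, with 1 gene under both its symbol Pacc1 and the older Tmem206, and it was counted once. There were 15 alternatives, among them DESeq2 1.42.0 and limma 3.58.1. Promoter sequences are RefSeq's (GRCr8) and were matched by symbol for 9 of 9 genes. The row coordinates are the authors' and were not converted. A few list genes are not reported here. The miRNA libraries and the qRT-PCR were not analysed here.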

Additional observations from a re-analysis of the deposited data

How the results depend on the processing

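The count of called chloride genes was 0 under each of the 9 alternatives that kept all libraries and ranged from 0 to 1 when a library was left out, Clcn2 being called without CCI 2 (log2 fold change 7.20) and without CCI 3 (7.19). The adjusted count was 0 under all 15. Clcn2 could not enter either count with DESeq2, which gave it no p. Nor could it at a mean FPKM of at least 1, where it fell under the filter. When a library was left out, the log2 fold change changed sign for Slc12a4 (-0.072 to 0.0080), Slc12a7 (-0.051 to 0.19), Clcn2 (-4.62 to 11.22), Ano1 (-0.026 to 0.14), Ano3 (-0.036 to 0.20) and Lrrc8a (-0.052 to 0.063), and stayed below 0 for Slc12a2 (-0.20 to -0.04) and Clcn3 (-0.14 to -0.01); the cause was not tested. Of the 58 other chloride genes, 1 was called, against 2 with no filter, 0 with the replicate block and 0 to 2 when a library was left out; at an adjusted p under 0.05 DESeq2 called 4 and edgeR 0. Over all rows, 686 were higher and 336 lower, against 410 and 161 with limma on log2(FPKM + 1) and 353 and 115 among protein-coding rows alone, where fewer rows were tested. At an adjusted p, 25 rows became 751 with DESeq2, 76 with protein-coding rows alone, 0 with the replicate block and 6 to 61 when a library was left out. The replicate numbers did not pair the libraries (correlations of same-numbered deviations -0.0547 to -0.0106, under the limit of 0.1), so they share only a number. With the block Slc4a8 had a log2 fold change of 1.13. The difference in the log2 ratio of Slc12a2 to Slc12a5 was 0.66 to 1.79 when a library was left out and 1.26 in CPM. The order of levels had 6 overlapping neighbour pairs over the groups, and 6 with TMM-scaled FPKM. Slc12a5, with 7 to 64 counts in a library, was tested only without the filter.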
